A study of Mus musculus with 4 samples.

Results

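Costimulatory and checkpoint ligands are the surface proteins by which an antigen-presenting cell tunes the T cell that has recognised its antigen. Expression of 8 genes of this kind, chosen by name (Pdcd1lg2, Cd274, Cd80, Cd86, Cd40, Icosl, Tnfsf9 and Havcr2), was examined out of 18193 genes that had a probe set naming only them. The 8 genes were read by 15 of the 45101 probe sets of the array. The cells were mouse peritoneal macrophages elicited with thioglycolate, which recruits them into the cavity, and cultured for 18 hours on permanox slides. Wild type (WT) cells and cells labelled Dap12-KO were each left untreated or given interleukin-4 (IL-4), which makes 4 groups. DAP12, the product of Tyrobp, is an ITAM adaptor of myeloid receptors, and the design bears on what its loss changes with and without the cytokine. A group consisted of 1 array, so a difference between 2 arrays carries no test and no error of its own. How the deletion was made, and the strain, sex, age and number of the mice, are not given in the sources used here.

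CD80 and CD86, the classical B7 proteins, bind CD28 to costimulate T cells and CTLA-4 to restrain them, and ICOS ligand (Icosl) and 4-1BB ligand (Tnfsf9) costimulate through ICOS and 4-1BB. PD-L1 (Cd274) and PD-L2 (Pdcd1lg2) are both ligands of the inhibitory receptor PD-1, and PD-L2 is a well known product of IL-4 signalling through STAT6 in macrophages. CD40 is the macrophage's receptor for CD40 ligand on T cells, and TIM-3 (Havcr2) is an inhibitory receptor carried by exhausted T cells and by myeloid cells. The set thus holds ligands and also a pair of receptors.

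All values are RMA log2 probe set values as deposited, and where several probe sets name a gene, the one brightest on average is used. The level floor was 6.39, the median of all values, and 12767 genes reached it on at least 1 array. All 8 genes did so. Cd274, Cd86, Cd40, Tnfsf9 and Havcr2 did so on all 4 arrays, Pdcd1lg2 and Cd80 on 3, and Icosl on 1. Higher and lower mean a difference of at least 2-fold, or 1 log2 unit, in what follows, unless a value is given alone.

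Among the 4 arrays, that of IL-4-treated cells labelled Dap12-KO stood apart. Its middle 50% of values spanned 2.54 log2 units against 3.19 to 3.25 on the other arrays, and its correlations with them were 0.936 to 0.949 over all probe sets, against 0.991 between both WT arrays. For the probe sets used for the 8 genes, differences that use it are also given after cyclic loess, a scaling that brings arrays onto a common level trend. Tyrobp read 14.39, 14.13, 14.03 and 13.27 on WT untreated, WT IL-4 and the untreated and IL-4 arrays labelled Dap12-KO, so its signal did not bear out the label. The position of its probes against the deleted part is unknown, and probes that lie elsewhere in the gene would be no check of the label. Each direction between genotypes below rests on the labels. The macrophage markers Adgre1, Csf1r, Cd68, Itgam, Mertk, Cd14, Lyz2 and Fcgr1 were all above the floor on the 4 arrays, with a log2 of their summed levels between 16.16 and 16.72. In RNA of whole cultures, fewer cells of a type and less RNA per cell cannot be told apart.

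**Figure D1:**
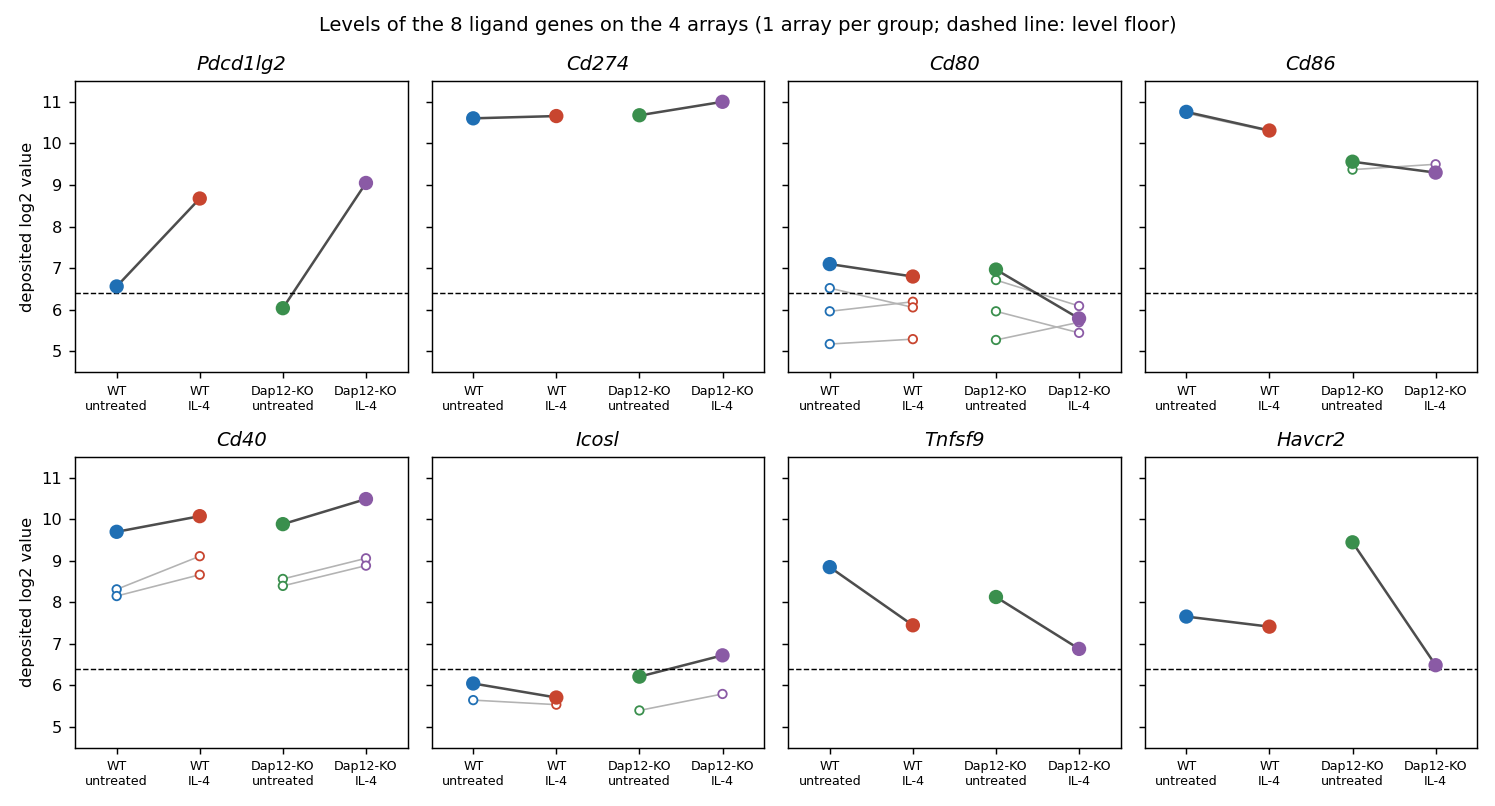
Deposited log2 values (y axis) of the 8 genes on the 4 arrays (x axis, 1 array per group). Large filled points are the probe set used for the gene, small open points its other probe sets, lines join both arrays of a genotype and the dashed line is the level floor of 6.39. Pdcd1lg2 is higher on both IL-4 arrays and Tnfsf9 lower, while Havcr2 is high on 1 array, at 9.44.

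Pdcd1lg2 had the highest IL-4 difference of the 8 genes in both genotypes. Its only probe set read 6.56 in WT untreated, 8.67 in WT with IL-4, 6.04 in untreated cells labelled Dap12-KO and 9.05 in those with IL-4. Both IL-4 arrays were above both untreated arrays. The IL-4 difference was 2.11 in WT, or 4.33-fold, and 3.01 in cells labelled Dap12-KO, or 8.07-fold. After cyclic loess these were 2.16 and 3.41. The untreated value labelled Dap12-KO lay below the floor, so the size of that difference rests on a background reading. Between genotypes Pdcd1lg2 differed by −0.52 untreated and by 0.37 with IL-4, both under 2-fold, and by −0.46 and 0.79 after cyclic loess.

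The promoter of Pdcd1lg2 is shown because the gene had the highest IL-4 difference of the set and because its window holds a STAT6-type motif. That of Havcr2 is shown because this gene had the largest untreated genotype difference of the set, described below. RefSeq promoter windows of GRCm38.p6, from 250 bases before to 50 after the start site, were found for 5 of the 8 genes (Pdcd1lg2, Cd274, Cd80, Icosl and Havcr2) and not for Cd86, Cd40 and Tnfsf9. The 250 bases before each start site are printed 5′ to 3′ on the plus strand, for Pdcd1lg2 chr19:29410669-29410918 with the STAT6-type match in capitals, and for Havcr2 chr11:46454681-46454930 with the AP-1 match in capitals.
Pdcd1lg2: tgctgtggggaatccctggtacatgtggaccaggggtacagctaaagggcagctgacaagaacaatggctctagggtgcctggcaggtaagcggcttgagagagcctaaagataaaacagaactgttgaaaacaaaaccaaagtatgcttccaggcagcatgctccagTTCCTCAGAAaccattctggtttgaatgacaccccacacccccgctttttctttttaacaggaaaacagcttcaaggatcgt
Havcr2: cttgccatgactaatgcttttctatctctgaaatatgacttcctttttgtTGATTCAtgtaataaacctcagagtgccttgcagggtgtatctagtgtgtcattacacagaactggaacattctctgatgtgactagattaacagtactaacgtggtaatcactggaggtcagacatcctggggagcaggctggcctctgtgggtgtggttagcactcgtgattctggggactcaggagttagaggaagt

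A total of 4 motifs were searched on both strands of the whole windows. The STAT6-type motif, TTC and GAA with any 4 bases between them, matched once, in Pdcd1lg2 at −82 from the start site as TTCCTCAGAA, and in 6.95% of all 32851 RefSeq windows. The STAT-type motif with 3 bases between the same arms matched none of the 5 windows and 8.30% of all. The AP-1 motif TGANTCA matched Havcr2 at −200 and Cd80 at −42, both as TGATTCA, and 7.81% of all windows. The PU.1 motif GAGGAAG, of the lineage factor of macrophages, matched Havcr2 at −8 and 13.6% of all windows. No matches of different motifs overlapped in the 5 windows. The windows of Cd274 and Icosl held none of the 4 motifs. A match is a run of letters only, and no binding was measured.

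Cd274, which encodes the other PD-1 ligand, lies next to Pdcd1lg2 on chromosome 19 but showed no such difference. It read 10.60, 10.66, 10.68 and 11.00 on WT untreated, WT IL-4 and the untreated and IL-4 arrays labelled Dap12-KO. All 4 values lay within 1 log2 unit. Its IL-4 difference was 0.05 in WT and 0.32 in cells labelled Dap12-KO, and the latter was 0.94 after cyclic loess, still under 2-fold. With IL-4, the genotypes differed by 0.34 as deposited and by 1.02 after cyclic loess.

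The genes annotated around this pair were read for comparison, with 3 on each side in the RefSeq gene table. In WT none of the measured neighbours differed by 2-fold with IL-4. Plgrkt, which encodes a plasminogen receptor, differed by −0.20, Ric1 by 0.22 and Ermp1 by −0.22. In cells labelled Dap12-KO, Plgrkt differed by −1.11, Ric1 by −0.23 and Ermp1 by −1.66 as deposited, and by −0.48, 0.40 and −1.01 after cyclic loess. Rln1 and the long non-coding RNA A930007I19Rik were below the floor on all arrays, and Gm52390 and Gm36043 had no probe set naming only them. In both genotypes and both scalings Pdcd1lg2 was thus the 1 gene of the 7 measured here that was higher with IL-4.

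**Figure D2:**
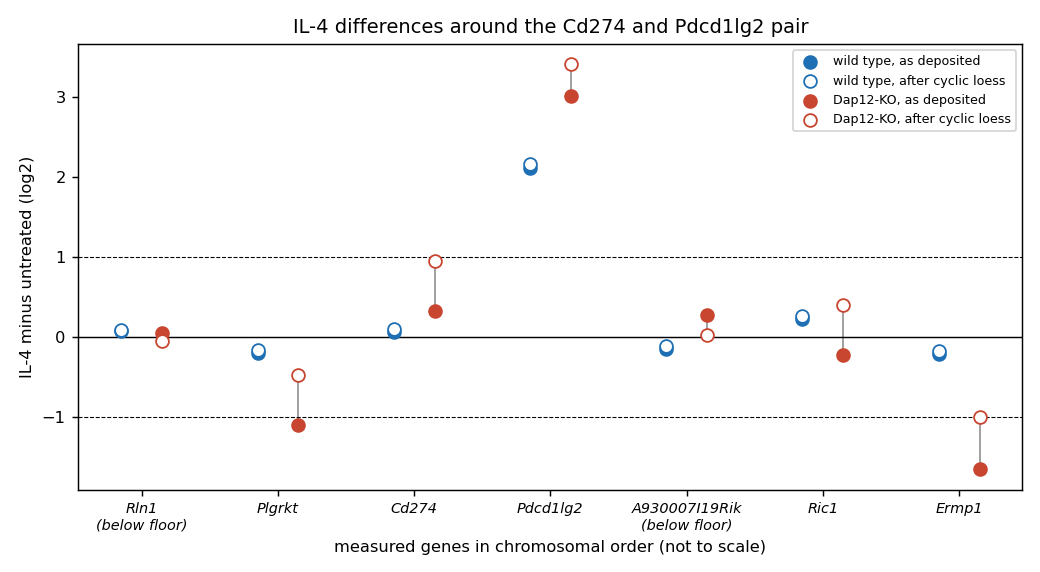
IL-4 minus untreated (y axis, log2) for the 7 measured genes around Cd274 and Pdcd1lg2, in chromosomal order and not to scale. Blue is WT and red is labelled Dap12-KO, filled points are deposited values, open points follow cyclic loess and dashed lines mark 2-fold. Pdcd1lg2 reads 2.11 and 3.01 as deposited, and its neighbour Cd274 0.05 and 0.32.

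Over the 4 arrays, the genes whose centred values lay nearest to those of Pdcd1lg2 were Batf3, Cd209e and Mgl2, at Euclidean distances of 0.31, 0.46 and 0.64 log2 units. Batf3, a transcription factor of dendritic cells, read 8.38, 10.27, 7.67 and 10.43 in the array order used above, with IL-4 differences of 1.89 and 2.77. Batf3 is also 1 of 9 measured dendritic cell markers, of which it alone was at 2-fold with IL-4 in WT, while in cells labelled Dap12-KO Itgax was too, by 1.26. Over all genes 1.21% were higher with IL-4 in WT and 8.04% in cells labelled Dap12-KO. Flt3, Ccr7 and Fscn1 of the dendritic cell list differed by −0.12, −0.26 and −0.01 with IL-4 in WT. Zbtb46, Cd209a, Siglech and Itgax of the same list differed by 0.65, 0.49, 0.16 and 0.01. The part of dendritic cells in the Pdcd1lg2 difference was not tested. Cd209e and Mgl2 both encode C-type lectins, with IL-4 differences of 2.02 and 2.50 for Cd209e and of 2.92 and 2.61 for Mgl2. Cd209e read 4.74 and 4.70 on the untreated arrays, below the floor. Only 2 of 12766 genes lay within 0.5 units of Pdcd1lg2. With 4 arrays such likeness is a description only.

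The B7 costimulators did not share the pattern of Pdcd1lg2. Cd86 read 10.76 in WT untreated, 10.31 in WT with IL-4, 9.56 in untreated cells labelled Dap12-KO and 9.30 in those with IL-4. Both arrays labelled Dap12-KO were below both WT arrays, while the IL-4 differences were −0.45 and −0.26. The direction of the latter depends on the scaling, since it was 0.40 after cyclic loess and 0.32 after quantile normalization, and 0.13 in the second probe set as deposited. The genotype difference was −1.20 untreated, or 2.29-fold, and −1.01 with IL-4. Its second probe set read 10.73, 10.29, 9.37 and 9.50, with genotype differences of −1.36 and −0.79. After cyclic loess the untreated difference was −1.10 and that with IL-4 was −0.29, so only the former was at 2-fold in both scalings.

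Cd80, the second CD28 and CTLA-4 ligand, was close to the floor. Its brightest probe set read 7.10 and 6.80 on the WT arrays and 6.96 and 5.79 on those labelled Dap12-KO, where the IL-4 array was lowest and below the floor. The IL-4 difference was −0.30 in WT and −1.18 in cells labelled Dap12-KO, and the genotypes differed by −0.13 untreated and −1.01 with IL-4. After cyclic loess the values with the narrower array were −1.21 and −1.07. Of its other 3 probe sets, 1 reached the floor, on both untreated arrays only. The IL-4 differences labelled Dap12-KO of these 3 were −0.52, −0.62 and 0.43, and the median over the 4 probe sets gave −0.59. With IL-4 the genotype differences of the same 3 were −0.75, 0.03 and 0.41, and the median over the 4 gave −0.38. Of the 4 probe sets, 1 was thus at 2-fold as deposited in each of these comparisons.

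Icosl, the ligand of ICOS, was mostly below the floor. It read 6.05, 5.71, 6.21 and 6.72 in the order WT untreated, WT IL-4, untreated and IL-4 labelled Dap12-KO, and only the last exceeded the floor. With IL-4 the genotypes differed by 1.01, from a WT value below the floor, and by 0.75 after cyclic loess. Its second probe set stayed below the floor on all arrays, with 0.26 for the same difference.

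Tnfsf9 was lower with IL-4 in both genotypes. It read 8.84 in WT untreated, 7.45 in WT with IL-4, 8.13 in untreated cells labelled Dap12-KO and 6.88 in those with IL-4. Both IL-4 arrays were below both untreated arrays. The IL-4 differences were −1.40 in WT, or 2.64-fold, and −1.25 in cells labelled Dap12-KO, or 2.38-fold, and the latter was −0.77 after cyclic loess. Between genotypes Tnfsf9 differed by −0.72 untreated and −0.57 with IL-4, both under 2-fold, and the latter was −0.06 after cyclic loess. The genes nearest to it over the 4 arrays were Lrp8, a lipoprotein receptor, Rtp4, an interferon-inducible gene, and Marcksl1, at distances of 0.17, 0.18 and 0.18, and 49 genes lay within 0.5 units. All 4 probe sets of Marcksl1 showed IL-4 differences below 0 in both genotypes, whereas 1 of 3 for Lrp8 and 1 of 2 for Rtp4 were above 0 in cells labelled Dap12-KO.

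Cd40 was above the floor throughout and varied little. Its brightest probe set read 9.69, 10.07, 9.88 and 10.48 in the same array order, and each IL-4 array was above the untreated array of its genotype. The IL-4 difference was 0.38 in WT and 0.60 in cells labelled Dap12-KO. The other 2 probe sets gave 0.80 and 0.51 in WT and 0.50 and 0.49 in cells labelled Dap12-KO, so all 3 were positive in both genotypes and none reached 2-fold. After cyclic loess the 3 probe sets gave 1.14, 1.26 and 1.11 in cells labelled Dap12-KO, all past 2-fold, and 0.84, 0.41 and 0.55 in WT. With IL-4 the genotypes differed by 0.41 as deposited and by 1.13 after cyclic loess, and by −0.05 with the median over its probe sets.

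Havcr2 had the largest untreated genotype difference of the 8 genes, in both scalings. It read 7.66 in WT untreated, 7.41 in WT with IL-4, 9.44 in untreated cells labelled Dap12-KO and 6.49 in those with IL-4. The untreated array labelled Dap12-KO was the high one, and the IL-4 array of the same label was the lowest of the 4, just above the floor. Untreated, the difference between genotypes was 1.79, or 3.45-fold, and with IL-4 it was −0.93, or −0.45 after cyclic loess. The IL-4 difference was −0.24 in WT and −2.96 in cells labelled Dap12-KO, or 7.76-fold, and the latter was −2.50 after cyclic loess. The responses therefore differed by −2.71, and by −2.30 after cyclic loess. The untreated genotype difference and the IL-4 difference of that label share the 1 array on which Havcr2 was high, so they are not separate observations of it. Only 1 probe set reads this gene.

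The genes nearest to Havcr2 were Zfp229, Cd28 and Rnf150, at distances of 0.19, 0.26 and 0.35, and 14 of 12766 genes lay within 0.5 units. Cd28, the costimulatory receptor for CD80 and CD86, read 5.96, 5.71, 7.53 and 4.95, above the floor only on the untreated array labelled Dap12-KO. Its other probe set read 5.54, 5.48, 7.84 and 5.20, so both were high on the same array as Havcr2. Zfp229 was likewise above the floor on that array alone, at 6.97. Rnf150 read 7.64, 7.54, 9.16 and 6.65.

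Marker lists of other cells were read on the same arrays. The log2 of the summed level of 6 mast cell markers was 9.16, 8.97, 10.08 and 9.22, highest on the array with high Havcr2, where Cma1 was higher than in WT by 1.34 and Cpa3 by 0.93. The mast cell receptors Kit and Ms4a2 and the protease Mcpt4 were below the floor on all 4 arrays. The 7 measured B cell markers gave 10.35, 10.52, 11.10 and 10.47, also highest there, with Ms4a1 higher by 1.13, while Pax5 and Ebf1 exceeded the floor in 1 group only, Dap12-KO with IL-4 by its label. The 8 macrophage markers gave 16.57, 16.38, 16.72 and 16.16, likewise highest there. Of these 8 markers 1 was higher than in WT on that array, the efferocytosis receptor Mertk by 1.97, and 0 were lower. Of all genes 3.12% were higher and 3.41% lower in that comparison. The Fc receptor gene Fcgr1 differed by 0.82 there and by −2.15 with IL-4 in cells labelled Dap12-KO. Its second probe set gave 1.22, past 2-fold, and −1.05, so whether Fcgr1 counts as higher there depends on the probe set. Cd14 and Itgam differed by −0.68 and −0.33 on that array. The part of any of these in Havcr2 was not tested. Dendritic cell markers, 9 measured, ranged from 11.77 on the same array to 13.41 in WT with IL-4. Itgax alone was lower on that array than in WT untreated, by −1.93, against 3.41% of all genes. Xcr1, which marks cross-presenting dendritic cells, was below the floor on all arrays. The remaining lists ranged from 9.16 to 9.79 for T and NK cells, from 10.18 to 11.03 for neutrophils and from 8.19 to 8.56 for eosinophils.

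Taking the 8 genes by comparison, 1 was higher (Pdcd1lg2) and 1 lower (Tnfsf9) with IL-4 in WT, where 1.21% of the 12767 genes were higher and 1.25% lower. Their median difference was −0.27 against −0.03 for all genes. In cells labelled Dap12-KO, 1 was higher (Pdcd1lg2) and 3 lower (Cd80, Tnfsf9 and Havcr2) with IL-4, against 8.04% and 17.6% of all genes. The members' median there was 0.03 and that of all genes −0.40. After cyclic loess 2 were higher (Pdcd1lg2 and Cd40) and 2 lower (Cd80 and Havcr2), against 9.79% and 5.91% of all genes.

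Between untreated arrays 1 was higher (Havcr2) and 1 lower (Cd86) in cells labelled Dap12-KO, against 3.12% and 3.41% of all genes, with a median of −0.03 against 0.03. Between the IL-4 arrays 1 was higher (Icosl) and 2 lower (Cd80 and Cd86), against 10.9% and 17.6%, with a median of −0.11 against −0.39. Icosl was above the floor only on the array that makes it higher here, so its count is a description only. After cyclic loess 2 were higher (Cd274 and Cd40) and 1 lower (Cd80), against 12.6% and 5.33%. For the difference of both IL-4 responses 0 of 8 were above 1 log2 unit and 1 below −1 (Havcr2), against 8.15% and 14.8%. After cyclic loess 1 was above (Pdcd1lg2, at 1.25) and 1 below (Havcr2), against 8.90% and 5.58%. These comparisons share arrays with each other, and the calls that changed between scalings all involve the narrower array.

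**Figure D3:**
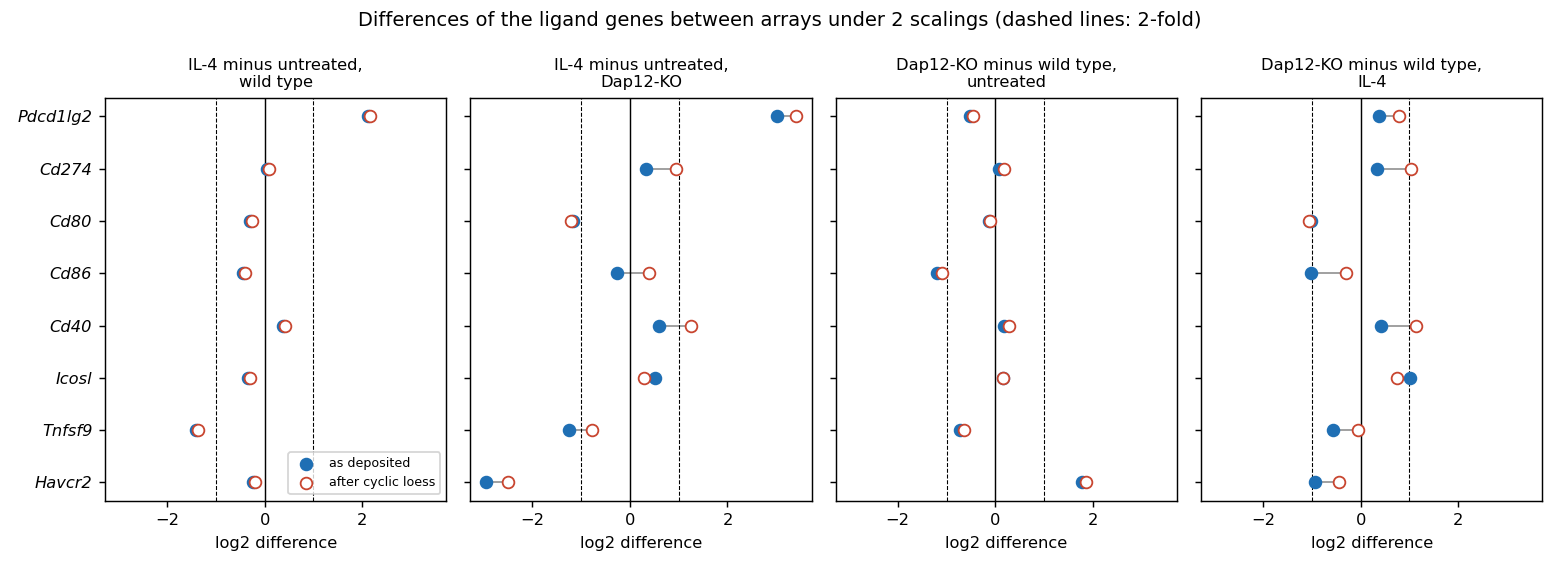
Log2 differences (x axis) of the 8 genes in the 4 comparisons of 2 arrays, as deposited (filled blue) and after cyclic loess (open red), with dashed lines at 2-fold. The panels without the narrower array, for IL-4 in WT and for the untreated genotypes, barely move, whereas Cd274 with IL-4 goes from 0.34 to 1.02 and Cd86 from −1.01 to −0.29.

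To test IL-4 over both genotypes, limma was fitted to all 4 arrays with a genotype term, which left 1 residual degree of freedom. The genotypes stand in for replicates there, so a p-value reflects these 4 arrays and no spread between mice. Pdcd1lg2 rose by 2.56 ± 0.42 (SE, n = 2 arrays per arm; limma adjusted p = 6.34e-07), higher in 2 of 2 genotypes. Havcr2 fell by 1.60 ± 0.42 (limma adjusted p = 0.0140), which rests on the −2.96 of cells labelled Dap12-KO beside −0.24 in WT. Tnfsf9, at −1.32, did not pass (limma adjusted p = 0.0837), although both its differences were past 2-fold. The other 5 genes did not pass either, with estimates from −0.74 for Cd80 to 0.49 for Cd40. Over all genes 0.540% rose and 1.10% fell.

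The fit pooled its spread so strongly that every gene received the same standard error, so the calls follow the size of the mean difference. After cyclic loess limma called 0 of the 8 genes (0% of all genes rose and 0% fell), with 3 of 8 at an unadjusted p under 0.05. Pdcd1lg2 was then at 2.78 ± 0.37 (SE; limma adjusted p = 0.306) and Havcr2 at −1.35 ± 0.58 (SE; limma adjusted p = 0.693). Over all alternatives the limma adjusted p ranged from 3.30e-08 to 0.728 for Pdcd1lg2, from 0.00499 to 0.923 for Havcr2 and from 0.0452 to 0.923 for Tnfsf9.

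**Figure D4:**
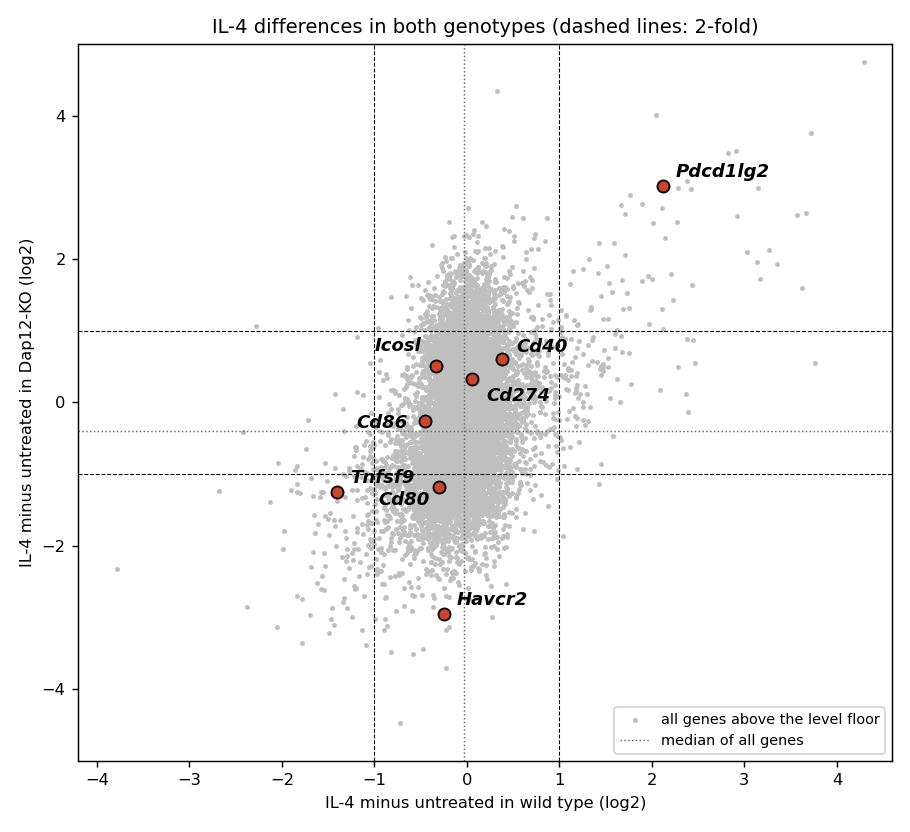
IL-4 minus untreated in WT (x axis, log2) against the same in cells labelled Dap12-KO (y axis, log2) for the 12767 genes above the floor (grey) and the 8 ligand genes (red). Dashed lines mark 2-fold and dotted lines the medians of all genes, −0.03 and −0.40. Pdcd1lg2 is past 2-fold upward and Tnfsf9 downward in both genotypes, and Havcr2 lies at −0.24 and −2.96.

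Related genes were read by role. For all lists below, the shares over all genes were 12767 of 18193 above the floor, and in limma 0.540% that rose and 1.10% that fell. A count of 0 past limma in a short list is near these shares. Of 9 other B7 and nectin ligands 8 had a probe set naming only them, 4 were above the floor and 0 passed limma. The inhibitory B7 protein VISTA (Vsir) read 11.89, 11.28, 12.12 and 10.66, lower with IL-4 in cells labelled Dap12-KO by −1.45, with −1.33 in its second probe set and −0.88 after cyclic loess. Cd276, which encodes B7-H3, read 7.53, 8.27, 7.13 and 7.17, and with IL-4 it was lower in cells labelled Dap12-KO by −1.11, or −0.71 after cyclic loess.

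Of 15 other TNF superfamily ligands, to which 4-1BB ligand belongs, 11 had a probe set naming only them. Of these 11, 4 were above the floor and 0 passed limma. Ltb, a lymphotoxin chain, was lower with IL-4 in WT by −1.12, at 6.08 against 7.20. Tnf itself differed by −0.16 with IL-4 in WT but was lower without treatment in cells labelled Dap12-KO, by −1.13, at 10.29 against 11.42.

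Of 6 ligands and relatives of TIM-3, 5 had a probe set naming only them, 4 were above the floor and 0 passed limma. Lgals9, which encodes galectin-9, a ligand described for TIM-3, read 10.26, 9.62, 10.69 and 9.45, with an IL-4 difference of −1.24 in cells labelled Dap12-KO that was −0.58 after cyclic loess. Ceacam1, another described partner, differed by −1.04 between genotypes with IL-4 in its brightest probe set, or −0.33 after cyclic loess, and by 0.21 as deposited in another that was above the floor on all arrays.

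On the T cell side, 7 of 12 receptor genes were above the floor. Of these 0 rose in limma and 2 passed downward, against 0.540% and 1.10% of all genes. The inhibitory receptor Btla fell by 1.46 (limma adjusted p = 0.0359). Cd28 was at −1.42 (limma adjusted p = 0.0478), but it entered the test only through the 1 array on which it was above the floor, and its WT difference of −0.25 lies between values below the floor, so its call is given as a description. After cyclic loess limma called 0 genes. The IL-4 differences of Btla were −0.86 in WT and −2.06 in cells labelled Dap12-KO, the latter −1.87 after cyclic loess. Pdcd1, which encodes the receptor of both PD-1 ligands, and Ctla4 were below the floor on all 4 arrays.

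Among 12 genes of CD40 signalling, 11 had a probe set naming only them. All 11 were above the floor and 0 passed limma. Traf5, an adaptor of CD40, read 10.82, 11.25, 8.94 and 10.08, lower without treatment in cells labelled Dap12-KO by −1.88, with a second probe set that was below the floor. The ubiquitin-editing inhibitor Tnfaip3 was lower there by −1.05, or −0.97 after cyclic loess, and its second probe set gave −0.52 as deposited. Of 12 other inhibitory proteins of macrophages, 11 had a probe set naming only them, 10 were above the floor and 0 passed limma. Between untreated arrays 0 of these 10 were higher and 3 lower in cells labelled Dap12-KO, against 3.12% and 3.41% of all genes. The 3 were the inhibitory receptor Pilra by −2.89, Tgfb1 by −1.40 and the CD200 receptor Cd200r1 by −1.15. Second probe sets gave −0.66 for Tgfb1 and −0.94 for Cd200r1, both under 2-fold.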

How the data were processed

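Total RNA of 4 cultures was measured on 4 Affymetrix arrays. The labels' protocols describe biotin labelling after 2 rounds of cRNA amplification. The authors deposited log2 values, 1 per probe set, for which the submitters' processing notes name RMA without a version. Probe-level files and detection calls were not used here, and the number of arrays limits the precision.

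Gene names came from GEO's annotation of the platform, and Entrez identifiers gave the current RefSeq (GRCm38.p6) symbols. Of 45101 probe sets, 34945 named 1 gene and 34741 of these matched. Differences were computed with Python 3.11.15, numpy 2.4.6 and pandas 2.3.3. IL-4 over both genotypes was fitted with limma 3.58.1 (R 4.3.3) over 12767 genes, Benjamini-Hochberg adjusted at 0.05, and tested on simulated data. Nothing in the labels says that arrays came from separate mice, so genotype was not tested.

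The 8 genes, the related lists and the markers were chosen with earlier results of these data known. Genes named beside the 8 were Tyrobp, list members at 2-fold in any comparison (up to 4 per list and comparison, of which the text gives part), the 3 genes nearest to each of the 8 that varied by 1 log2 unit or more (given where the text discusses them), and the 3 neighbours on each side of Cd274 and Pdcd1lg2. Kit, Ms4a2, Mcpt4, Pax5, Ebf1, Xcr1, Pdcd1 and Ctla4 were named for their role after values were seen. The dendritic cell markers Flt3, Ccr7, Fscn1, Zbtb46, Cd209a and Siglech were named outside these rules too, with values known. Alternatives were cyclic loess (3 iterations), quantile normalization, median centring, the median over probe sets, a 3-fold threshold, no floor or one at the 75th percentile, and for limma an intensity trend or no genotype term.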

Additional observations from a re-analysis of the deposited data

Results flagged for a closer look

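Icosl, the ligand of ICOS, moved in opposite directions with IL-4, by −0.34 in WT and by 0.51 in cells labelled Dap12-KO, a difference of responses of 0.85 that was not tested. The values on 3 of the 4 arrays were below the floor. The second probe set gave −0.11 and 0.40, also opposite in sign. After cyclic loess the brighter probe set gave −0.30 and 0.29. As many as 1858 of 12766 genes lay within 0.5 log2 units of the profile of Icosl over the 4 arrays.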

How the results depend on the processing

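No difference of a member at 2-fold changed sign under another scaling or the median over probe sets. Below 2-fold, the IL-4 difference of Cd86 in cells labelled Dap12-KO did, from −0.26 to 0.40 after cyclic loess and 0.32 after quantile normalization. With the median over probe sets, Cd40 between the IL-4 arrays went from 0.41 to −0.05 and its difference of responses from 0.23 to −0.30, and between untreated arrays Cd80 went from −0.13 to 0.10 and Icosl from 0.16 to −0.04. Of 40 differences (8 genes in 5 comparisons), 8 moved by 1.5-fold or more with cyclic loess, 6 with quantile normalization, 0 with median centring and 1 with the median over probe sets. Counts of members at 2-fold changed as follows. Cd80 and Icosl did not reach the floor with the median over probe sets or with the floor at the 75th percentile. Only 6 members were counted and fitted there. The cause of the other changes was not tested. With IL-4 in cells labelled Dap12-KO, 2 were higher after cyclic loess or quantile normalization in place of 1. In that comparison 2 were lower, in place of 3, after cyclic loess and in the settings with 6 members. Over all genes 1506 of 12767 were higher and 1115 lower after quantile normalization. The median over probe sets gave 729 of 11543 higher and 1697 lower. With the floor at the 75th percentile 329 of 7793 were higher and 1791 lower. Shares after cyclic loess are given above. Between the IL-4 arrays, 1 was higher and 2 lower as deposited. After cyclic loess these were 2 and 1, after quantile normalization 1 and 1, and after median centring 0 and 3. With the median over probe sets they were 0 and 0, and with the floor at the 75th percentile 0 and 1. Over all genes, 1815 of 12767 were higher and 1008 lower after quantile normalization, and 1081 and 3075 after median centring. With the median over probe sets 1053 of 11543 were higher and 1973 lower. With the floor at the 75th percentile 314 of 7793 were higher and 1809 lower. For the difference of responses, 1 in all as deposited became 2 (1 higher) after cyclic loess. It became 3 (1 higher, 2 lower) after quantile normalization and 2 (2 lower) after median centring. Over all genes 1454 were higher and 1009 lower after quantile normalization, and 753 and 2612 after median centring. At 3-fold, 1 remained with IL-4 in WT (0 lower) and 2 with IL-4 in cells labelled Dap12-KO (1 lower). Between untreated arrays 1 remained (0 lower), and 0 between the IL-4 arrays (0 higher, 0 lower). Of all 12767 genes, 61 were higher and 31 lower at 3-fold with IL-4 in WT, and 243 and 568 in cells labelled Dap12-KO. Between untreated arrays these were 91 and 138, and between the IL-4 arrays 456 and 530. The limma fit called 2 members as fitted. After cyclic loess, quantile normalization or with no floor, 0 of all genes passed. Without the genotype term 0 members passed (all genes: 7 rose, 0 fell). With an intensity trend 1 did (47 and 71 of 12767). With the median over probe sets 3 did (58 and 131 of 11543), where Tnfsf9 joined (limma adjusted p = 0.0452). The genotype term makes the IL-4 fit a blocked one, while between genotypes no fit was made. No array was left out in turn, since each group holds 1 array. Values near or below the floor, those of Icosl, Cd80 and untreated Pdcd1lg2, are limited by signal over background.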
